A study of Mus musculus with 6 samples.

Results

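Immediate early and heat shock genes were read in otic vesicles, the epithelial precursor of the inner ear, that were dissected from embryonic day 11.5 mice. The set was defined by name as 33 genes, and its members were all probe sets that the platform annotation gives to one of these symbols and to no other gene. It held 63 of the 45037 probe sets that are not controls, and 32 of 18193 named genes. Hsp90ab1, the remaining gene, was not analysed here. Of the 32 genes, 8 encode AP-1 factors, 8 other early transcription factors, 7 feedback and other early response proteins, and 9 heat shock proteins or chaperones. The set was drawn up as a read of handling stress, because the tissue was held in dispase for 30 min at 37 °C before RNA isolation.

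The Mest-KO group carried a T-Cre conditional Tbx1 knockout, and the controls were T-Cre conditional Tbx1 heterozygotes, so the Cre and a conditional Tbx1 allele were present in both. T-Cre acts in early mesoderm and its derivatives, while the vesicle itself is an epithelium of ectodermal origin. There were 3 arrays per group, each made from one pool of 3 embryos of one genotype with the left and right ears combined. All groups had the same age, the same enzyme step and 300 ng of total RNA as input. No array came from tissue without the enzyme step, so a response to it cannot be told apart here from expression in the embryo. Log2 changes are Mest-KO minus control, their standard errors (SE) come from limma's moderated fit with n = 3 pools per group, and p-values are two-sided and were adjusted by Benjamini-Hochberg over all 12462 genes tested.

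Immediate early genes are held silent or low in resting cells and are transcribed within minutes of a stimulus, without new protein synthesis, through kinase cascades that act on factors such as SRF, the ternary complex factors and CREB. Their products include transcription factors of the FOS, JUN and EGR families and proteins that end the response, such as the phosphatase DUSP1 and the RNA-binding protein ZFP36. The heat shock response is driven by the factor HSF1, which binds repeated heat shock units and raises the inducible Hsp70 genes Hspa1a and Hspa1b many-fold, while Hspa8, Hsp90aa1 and Hspa5 are chaperone genes that cells also use without stress. Both responses are well known to be set off by tissue dissection and enzyme treatment.

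Promoters of 5 members are shown because these genes carry the main contrasts in the values. Fos, Jun and Hspa1b were high on the same Mest-KO array, and Dusp1 and Hspa5 were low on it. For Hspa5 this held at its brightest probe set and not at another bright one. Each run holds the 250 bases before the annotated start of the gene, from RefSeq (GRCm38.p6), read 5′ to 3′ on the strand of the gene. They lie at chr12:85473640-85473889 (plus strand) for Fos, chr4:95052223-95052472 (minus strand) for Jun, chr17:26508473-26508722 (minus strand) for Dusp1, chr17:34959239-34959488 (minus strand) for Hspa1b and chr2:34771840-34772089 (plus strand) for Hspa5. Capitals mark a TATAAA in Fos, a pair of heat shock units and a CCAAT in Jun and Hspa1b, a TGACGTCA in Dusp1, and CCAAT boxes on either strand, TGANTCA and the endoplasmic reticulum stress element in Hspa5.
Fos: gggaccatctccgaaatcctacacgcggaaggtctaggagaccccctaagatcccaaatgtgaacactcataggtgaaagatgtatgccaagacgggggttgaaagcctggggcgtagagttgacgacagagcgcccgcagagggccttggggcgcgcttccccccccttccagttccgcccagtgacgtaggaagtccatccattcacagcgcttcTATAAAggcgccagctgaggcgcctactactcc
Jun: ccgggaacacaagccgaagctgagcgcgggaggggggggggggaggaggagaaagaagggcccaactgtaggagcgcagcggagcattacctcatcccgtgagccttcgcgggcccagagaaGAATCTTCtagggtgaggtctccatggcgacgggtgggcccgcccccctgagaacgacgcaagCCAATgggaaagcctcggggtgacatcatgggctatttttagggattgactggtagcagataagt
Dusp1: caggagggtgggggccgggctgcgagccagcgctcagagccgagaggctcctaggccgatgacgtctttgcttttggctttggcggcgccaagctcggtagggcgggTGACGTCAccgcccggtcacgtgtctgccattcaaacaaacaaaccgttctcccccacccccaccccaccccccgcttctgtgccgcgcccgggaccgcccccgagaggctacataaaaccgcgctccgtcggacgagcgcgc
Hspa1b: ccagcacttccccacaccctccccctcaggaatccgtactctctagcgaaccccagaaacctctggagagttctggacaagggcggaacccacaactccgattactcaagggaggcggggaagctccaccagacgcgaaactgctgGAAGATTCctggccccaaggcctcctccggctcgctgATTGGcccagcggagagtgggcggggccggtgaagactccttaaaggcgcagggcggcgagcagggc
Hspa5: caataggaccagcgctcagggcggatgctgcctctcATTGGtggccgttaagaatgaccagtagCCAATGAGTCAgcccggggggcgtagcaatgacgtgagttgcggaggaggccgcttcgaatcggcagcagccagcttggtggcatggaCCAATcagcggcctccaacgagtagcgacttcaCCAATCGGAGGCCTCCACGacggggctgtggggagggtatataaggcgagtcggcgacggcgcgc

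The promoter table held 25 of the 33 members, and motifs were searched in windows of 250 bases before to 50 after the start. A pair of heat shock units, GAA and TTC in either order with any 2 bases between, on both strands, occurred in 5 of 7 heat shock members (Hspa1a, Hspa1b, Hspb1, Dnaja1 and Hsph1), in 2 of 18 early response members (Fosl2 and Jun), and in 15.1% of 32851 promoters of the same length. A member counts here when any of its promoters holds the motif, and by that rule the pair occurred in 17.0% of 27025 genes. Dnaja1 had it in 1 of 3 promoters and the others in all of theirs. The form with 3 units, in which GAA and TTC alternate at the same spacing, contains such a pair. That form occurred in Hsph1 and in 0.603% of promoters (0.662% of genes). In Hsph1 it lay after the start site, beginning at 36 in one promoter and at 15 in the other. The cAMP response element TGACGTCA occurred in Dusp1 and Btg2 and in 1.79% of promoters (2.03% of genes). The CArG box, the binding sequence of SRF, occurred in Zfp36 and in 1.63% of promoters (1.81% of genes). Egr1 was among the members without a promoter in the table, and sites outside the window were not searched in any member. The endoplasmic reticulum stress element, CCAAT followed after 9 bases by CCACG, and the AP-1 site TGANTCA both occurred in Hspa5. Their shares were 0.119% and 7.81% of promoters, and 0.137% and 8.97% of genes. TATAAA on the sense strand occurred in Fos and Junb and in 8.32% of promoters (9.77% of genes). CCAAT on both strands occurred in 13 of 25 members and in 37.4% of promoters (41.1% of genes). Counted from the start site, the TATAAA of Fos began at -33, while that of Junb began at the start site itself and not before it. The paired units began at -128 in Jun and at -104 in Hspa1b, the TGACGTCA of Dusp1 at -143, and the stress element of Hspa5 at -65. The promoters of Hspa1a and Hspa1b were equal at 247 of 250 bases, so the copies carry the same motifs at the same distances. They are therefore not independent cases in the counts of heat shock members. A match is a run of letters and was not tested as a binding site.

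The arrays differed in ways that touch the results below. The median intensity was 91.0 on the array Mest-KO 3 and 62.1 to 71.0 on the others, and that array stood apart on the first principal component (36.4 against -10.3 to -1.77). Xist and Eif2s3y, transcribed from the inactive X and from the Y chromosome, read 16.1 for Xist in Mest-KO 1, against 2331 to 5034 elsewhere, and 12.1 for Eif2s3y in Control 2, against 1373 to 2663, so these pools each held embryos of one sex. The Tbx1 probe set differed by -0.027 (SE 0.150), and since the deletion was directed at mesoderm and its position relative to the probes is not known here, it does not check the labels. Of 12 otic vesicle markers, 11 had a probe set and all 11 lay above the filter. Their summed intensities were 48167 to 52304 in Mest-KO and 52175 to 54420 in control. After normalization 4 were higher and 7 lower in Mest-KO, with a median log2 change of -0.013. The largest was that of Gata3, at -1.02 (SE 0.1065), with 915 to 1123 in Mest-KO and 2074 to 2170 in control. Mesenchyme markers, of the tissue that dispase is meant to free from the vesicle, were all present (12 of 12 above the filter, none at 0). Their summed intensities ran from 4337 to 8498 in Mest-KO, with Mest-KO 2 highest, and from 4125 to 7316 in control, with Control 1 highest. In these bulk samples fewer cells of a type and less RNA per cell cannot be told apart.

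None of the members differed between Mest-KO and control by the main test. Of the 32 genes, 25 had a probe set with a mean above the filter, an intensity of 34.4, and limma called 0 of these 25 at an adjusted p under 0.05, against 0% of all genes. At an unadjusted p under 0.05 there were 2 of 25, Jun and Hspa1b, against 5.14% of all genes. Both were higher in Mest-KO, where 2.23% of all genes were higher and 2.91% lower at that p. Values did not overlap between the groups for 2 of 25 members, against 10.6% of all genes. These were Jun, higher in Mest-KO as were 4.74% of all genes, and Hsph1, lower as were 5.85%. The change was above 0 for 15 of 25 members, against 49.1% of all genes. The median log2 change over the 25 members was 0.082 and that over all genes tested was -0.0033. It was 0.17 for the 17 early response genes, 0.52 for the 5 tested AP-1 genes, all above 0, and -0.083 for the 8 heat shock genes, of which 3 were above 0. The direction of 4 of these AP-1 genes turned under some settings. The AP-1 median fell to 0.11 without Mest-KO 2, where Fos was -0.067, and to 0.14 without Control 2, where Junb was -0.20. Fosl2 was -1.21 with the most variable probe set and Jund -0.093 with median centring. The 3 AP-1 genes below the filter, Fosb, Fosl1 and Atf3, were at -0.023, -1.66 and -0.34. The median over the 25 members was 0.0096 without Mest-KO 2, 0.028 without Control 1, 0.051 without Control 2 and 0.149 without Mest-KO 1. With an array left out that of the early response genes ran from 0.039 (without Mest-KO 2) to 0.32 (without Mest-KO 1), at 0.059 without Control 1 and 0.089 without Control 2. That of the heat shock genes ran from -0.095 to -0.0056, the latter without Mest-KO 3, and was -0.044 without Control 2 and -0.054 without Control 3. With a variance prior that follows the level (limma's trend), 0 of 25 passed the adjusted threshold, against 0.104% of all genes.

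The count at an unadjusted p under 0.05 depended on single pools and on the processing. It was 0 with probe sets averaged per gene and with the plain two-sample statistic, against 4.47% and 5.10% of all genes. With the trend it was 4 (Jun, Ier5 and Hspa1b higher, Hspa5 lower), against 6.10%, and with the replicate block it was 2, Jun and Zfp36, against 5.07%. Without Mest-KO 1 it was 7 of 25 (Fosl2, Jun, Ier2, Ier5, Zfp36 and Hspa1b higher, Hspa5 lower), where all genes gave 8.62%. Without Mest-KO 2 it was 2, Jun higher and Myc lower, against 4.91%. It was 0 without Mest-KO 3 or Control 2, against 5.28% and 3.97%, and 1 without Control 1 (Hspa1b) or Control 3 (Ier3), against 4.36% and 4.79%. Without both pools of one sex it was 3 (Jun, Ier5 and Hspa1b), against 5.71% of all genes. The counts at an unadjusted p were added after seeing the data.

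**Figure D1:**
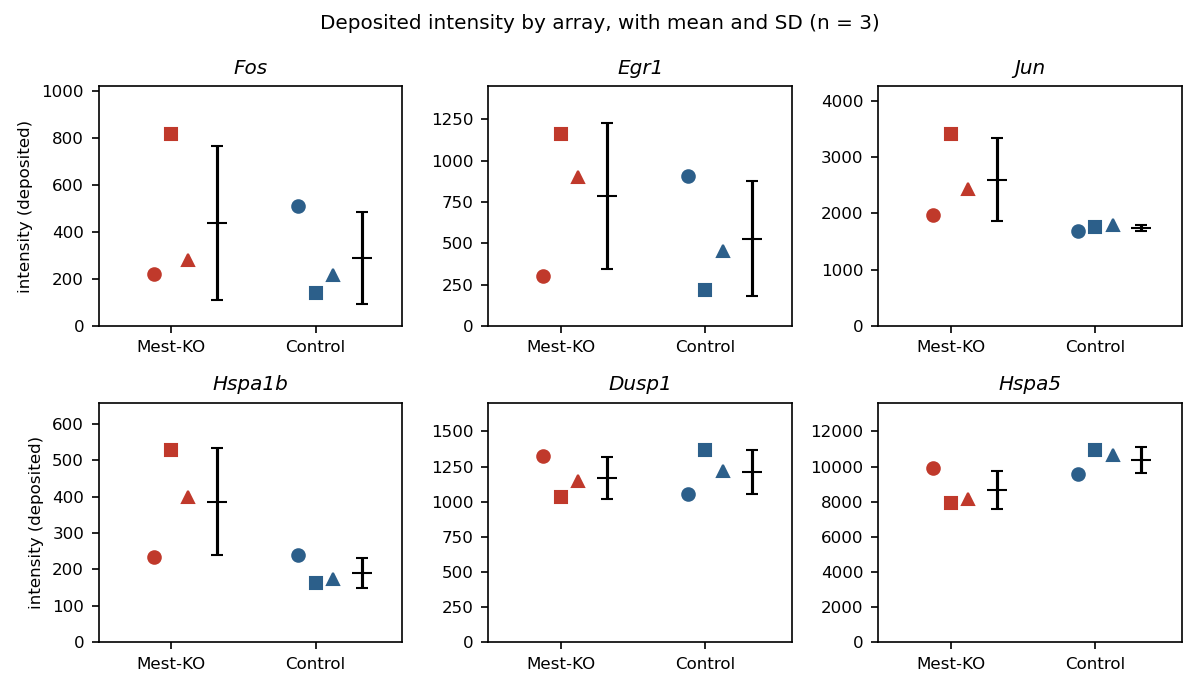
Deposited intensity (linear axis from 0) of 6 members on each array, Mest-KO in red and control in blue, with circle, square and triangle for replicates 1, 2 and 3 and the mean with SD in black (n = 3). Fos and Egr1 spread widely in both groups, Jun lay at 1963 or more in each Mest-KO pool and at 1787 or less in each control, and Mest-KO 2 was highest for Fos, Egr1, Jun and Hspa1b.

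The AP-1 factors bind as FOS-JUN or JUN-JUN dimers, and several of them spread widely between pools. Fos, the prototype immediate early gene, had intensities of 223, 817 and 279.5 in the Mest-KO pools and of 511, 138 and 216 in the control pools. Mest-KO 2 and Control 1 were high and the other arrays of both groups lay together, so the groups overlapped. The log2 change was 0.52 (SE 0.626; 95% confidence interval, -0.995 to 2.03), with a limma adjusted p of 0.922. Its sign turned to -0.067 without Mest-KO 2.

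Jun, the main dimer partner of FOS, had intensities of 1963, 3410.1 and 2426 in Mest-KO and of 1687, 1752 and 1787 in control. Every Mest-KO pool lay above every control, and the 3 controls were close together. The means were 2600.0 ± 739 (SD, n = 3) and 1742 ± 50.8 (SD, n = 3), a log2 change of 0.54 (SE 0.200) with an interval from 0.0614 to 1.03. The unadjusted limma p was 0.0327 and the adjusted p was 0.909, or 0.518 with the trend. With single arrays left out the change ran from 0.33 to 0.74. The second probe set of Jun read 574, 714 and 542 against 598, 536 and 464, where the groups overlapped, and gave 0.18 (SE 0.151).

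Junb, a JUN protein with weaker activating power, had intensities of 20.3, 49.3 and 102 in Mest-KO and 90.6, 8.85 and 28.8 in control. It had the largest residual SD of the tested AP-1 genes, and its log2 change of 0.61 (SE 0.850) became -0.20 without Control 2. Fosl2, a FOS relative without the strong activation domain, ran from 304 to 598 in Mest-KO and from 290.3 to 379 in control, a log2 change of 0.35 (SE 0.251). Jund, which many resting cells express steadily, ran from 7303 to 8037 and from 6217 to 8010.1, a log2 change of 0.12 (SE 0.104), or -0.093 with median centring. Atf3, a stress-induced factor that dimerizes with JUN, lay below the filter at 40.1, 27.5 and 23.1 in Mest-KO and 38.6, 30.0 and 28.9 in control. Fosb and Fosl1 were below the filter as well, with at most 40.2 and 14.1 on any array.

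**Figure D2:**
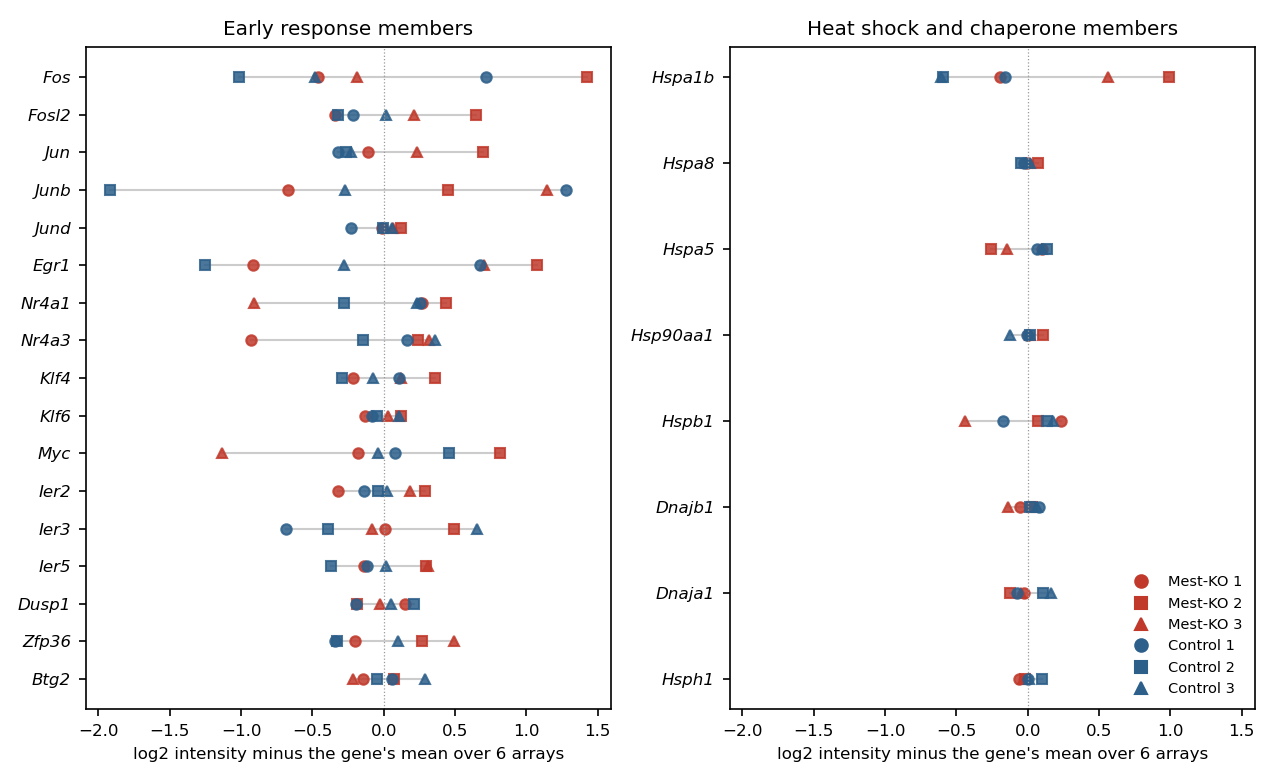
Normalized log2 intensity of each tested member minus its mean over the 6 arrays (horizontal axis, log2 units), for 17 early response genes on the left and 8 heat shock genes on the right, with Mest-KO in red and control in blue. Fos, Junb and Egr1 spread over more than 2 log2 units with the groups intermixed, while the chaperone genes other than Hspa1b and Hspb1 lay close to 0.

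Of the other early transcription factors, Egr1 had a wide spread like that of Fos. Egr1, a zinc finger factor and a direct target of SRF, had intensities of 299, 1161 and 900.4 in Mest-KO and of 906, 219 and 456 in control. Both groups held a pool near the bottom and a pool near the top, so they overlapped. The log2 change was 0.57 (SE 0.661), with an interval from -1.02 to 2.17 and a limma adjusted p of 0.917. It ran from 0.089 without Control 2 to 1.17 without Mest-KO 1.

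Klf4, a Krüppel-like factor of epithelia, read 158, 241 and 216 in Mest-KO and 204, 140.1 and 177 in control, with a log2 change of 0.17 (SE 0.176) and -0.037 at its second probe set. Klf6, a widely expressed relative, had the narrowest range of this group, from 2406 to 2883 in Mest-KO and from 2479 to 2829 in control. Myc, a growth regulator, read 43.5, 96.0 and 39.1 against 57.8, 65.4 and 51.7, and its change of -0.33 (SE 0.469) became 0.16 without Mest-KO 3. With the deposited scaling alone the change of Myc was -0.086. The orphan nuclear receptor genes Nr4a1 and Nr4a3 differed by -0.14 (SE 0.371) and -0.25 (SE 0.349), and Mest-KO 1 had the lowest Nr4a3, 482 against 809 to 1152 elsewhere. Klf2, known from endothelium under flow, lay below the filter at 12.6, 39.2 and 10.2 against 16.4, 41.1 and 2.80. Egr3 was below it too, at most 46.7.

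Among the genes that feed back on the response, Dusp1 was low on the arrays where Fos was highest, Mest-KO 2 and Control 1. Dusp1, which dephosphorylates MAP kinases, read 1328, 1035 and 1144 in Mest-KO and 1052, 1364 and 1218 in control. The lowest were those of Mest-KO 2 and Control 1, the groups overlapped, and its log2 change was -0.043 (SE 0.141). Ier2 and Ier5, immediate early genes of one protein family, differed by 0.10 (SE 0.170) and 0.31 (SE 0.164). Ier2 read 355, 539 and 503 against 409, 413 and 443, so that Mest-KO 1 lay below all controls and the other Mest-KO pools above them. Ier5 ran from 1038 to 1383 in Mest-KO and from 861 to 1127 in control, and a second probe set above the filter gave -0.45 (SE 0.408).

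Zfp36, which destabilizes AU-rich messages, ran from 91.7 to 171 in Mest-KO and from 76.5 to 117 in control, a log2 change of 0.38 (SE 0.212). Ier3, a gene of survival under stress, had the largest residual SD of the tested genes of this group, with 69.2, 103 and 88.7 against 46.0, 48.1 and 114. Its pools with low values were Control 1 and Control 2, and its change was 0.28 (SE 0.361). Btg2, an antiproliferative gene, differed by -0.20 (SE 0.126) and by -0.14 at its second probe set. Dusp2 lay below the filter, at most 20.7.

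**Figure D3:**
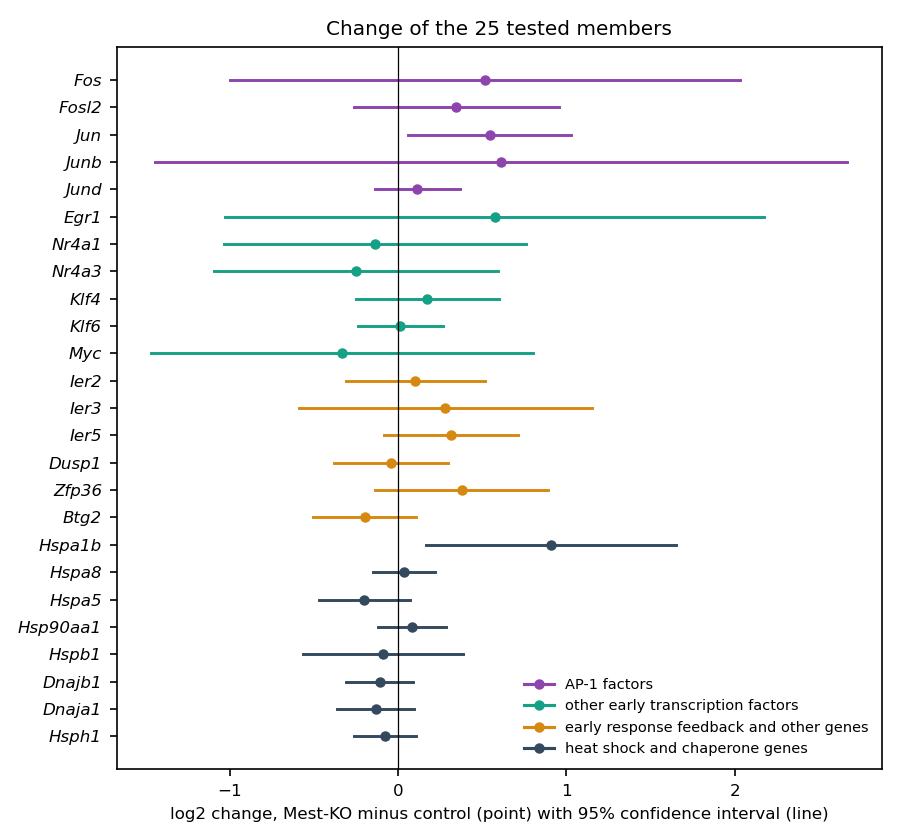
Log2 change, Mest-KO minus control (horizontal axis), of the 25 tested members with the 95% confidence interval of the limma fit, coloured by the role of the gene. The intervals of Jun, from 0.0614 to 1.03, and of Hspa1b, from 0.164 to 1.65, lay above 0, and the other 23 included it.

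The inducible Hsp70 gene Hspa1b had the largest change of the 8 heat shock members above the filter. Its intensities were 234, 526 and 399 in Mest-KO and 239, 162 and 173 in control. Mest-KO 2 and 3 lay above all controls, while Mest-KO 1 was level with Control 1, so the groups overlapped. The means were 386 ± 147 (SD, n = 3) and 191 ± 41.5 (SD, n = 3), a log2 change of 0.91 (SE 0.308), with an unadjusted limma p of 0.0241, an adjusted p of 0.909 and an adjusted p of 0.518 with the trend. With single arrays left out it ran from 0.64 to 1.23. Its other probe sets gave 0.40 (SE 0.291) and, below the filter, 0.63.

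Hspa1a, its near-identical copy, was below the filter at 2.79, 29.6 and 4.83 against 32.5, 8.26 and 9.77, with a log2 change of -1.23 (SE 1.2). Signal cannot be assigned with certainty to one of these copies, since their messages share most of their sequence. Hspb1, the small heat shock protein HSP25, had 112, 103 and 91.5 against 86.3, 95.5 and 110, with a log2 change of -0.089 (SE 0.197) and -0.64 (SE 0.385) at its second probe set. With the deposited scaling alone the change at the first probe set was 0.070. Dnajb1, the inducible HSP40 co-chaperone, read 2318, 2451 and 2138 against 2530.0, 2440 and 2519, a log2 change of -0.11 (SE 0.0828). The deposited values of Dnajb1 overlapped only through Mest-KO 2 and Control 2.

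At their brightest probe sets the chaperones with housekeeping functions varied little. The residual SD of Hspa8 was 0.041, 0.036 and 0.021 at its bright probe sets, but 0.46 at a dimmer one that ran from 323 to 722. That of Hsp90aa1 was 0.066, 0.053 and 0.17 at its bright ones and 1.13 at a dim one above the filter. Hspa8, the constitutive Hsc70, read 14571, 15234 and 14203 in Mest-KO and 14003, 15571 and 16389 in control, where the groups overlapped, and its log2 change was 0.037 (SE 0.0762) with an interval from -0.147 to 0.222. It was -0.21 with median centring, which lowers the median change of all genes to -0.136. Hsp90aa1, the inducible cytosolic Hsp90, read 9622, 10612 and 9416 against 9372, 10322 and 9266, a log2 change of 0.082 (SE 0.0834), or -0.12 with median centring. Hsph1, an Hsp110 that recharges Hsp70 with nucleotide, read 7328, 7624 and 7191 against 7533, 8678 and 8041. Its groups did not overlap after normalization, but its change was -0.076 (SE 0.0765) with a limma adjusted p of 0.910.

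Hspa5, or BiP, the Hsp70 of the endoplasmic reticulum, read 9895, 7907 and 8148 in Mest-KO and 9557, 10918 and 10654 in control. Mest-KO 2 and 3 were low and Mest-KO 1 lay above Control 1, with a log2 change of -0.20 (SE 0.111). Another bright probe set of Hspa5 gave -0.054 (SE 0.0877). It read 8413, 8930 and 7965 in Mest-KO and 8784, 9574 and 8842 in control, so Mest-KO 2 was not low there. Dnaja1, a co-chaperone of Hsc70, ran from 6147 to 6431 in Mest-KO and from 6165 to 7627 in control, a log2 change of -0.13 (SE 0.0946), with 0.055 and -0.033 at its other probe sets.

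Several early response members spread widely between the pools of one group. The residual SD is the spread of the log2 values within groups, and since it falls with the level it was set against the median of genes of similar level, in 10 equal classes of mean intensity. It exceeded 2 times that median for 7 of 25 members, against 6.20% of all genes. These were Egr1 at 6.67 times, Fos at 5.47, Nr4a3 at 3.98, Junb at 2.86, Hspa1b at 2.64, Jun at 2.55 and Fosl2 at 2.12. Egr1 and Fos lay above 99.7% and 99.6% of the genes of their level. Of the 12 mesenchyme markers 8 exceeded 2 times, with a median ratio of 2.87, and of the 5 tested macrophage and leukocyte markers 2 did, with a median of 1.95, so a wide spread was not particular to the early response members. Hspa8 and Hsph1, in contrast, had 0.475 and 0.492 times the median of their level. Fos and Egr1 exceeded 2 times in each setting run, from 3.46 to 8.10 for Fos and from 3.89 to 10.1 for Egr1. The count was 4 without Mest-KO 1, and with median centring 3, where 2.54% of all genes exceeded it. This measure was defined after earlier results were known and has no test.

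**Figure D4:**
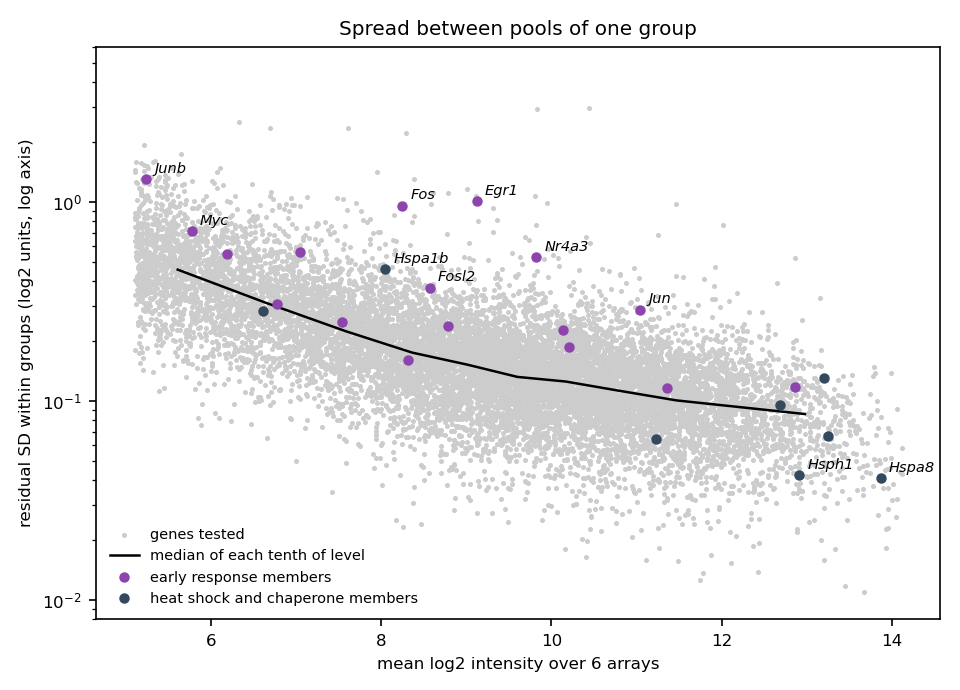
Residual SD within groups (vertical log axis, log2 units) against mean log2 intensity for 12462 genes in grey, with the median of each of 10 classes of level as a line and the 25 tested members as points. Egr1 and Fos, at residual SDs of 1.01 and 0.956, stand far above the line, and Hspa8 and Hsph1 lie below it.

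The pools with high and low early response genes were the same for several members. Averaged over the 17 tested early response members and relative to each gene's mean, the log2 level was -0.256, 0.448 and 0.074 for Mest-KO 1 to 3 and 0.059, -0.356 and 0.031 for Control 1 to 3. Mest-KO 2 was the highest array for 10 of 17 of these genes and Mest-KO 1 or Control 2 the lowest for 9 of 17, against 21.7% and 28.8% of all genes, with the arrays chosen after seeing the values. For the 7 tested heat shock members other than Hspa1b the averages ran from -0.114 on Mest-KO 3 to 0.066 on Control 2. The pools with low early response genes, Mest-KO 1 and Control 2, were also those of one sex, with low Xist in the first and low Eif2s3y in the second, so of opposite sex. The part of sex was not tested.

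The averages of the mesenchyme markers and of the early response members were both highest on Mest-KO 2, but differed in controls. Control 2, the lowest array for the early response members at -0.356, was at -0.025 for mesenchyme. Control 3, the lowest for mesenchyme at -0.666, was at 0.031 for the early response members. Not every mesenchyme marker followed the average, and the part of these markers in the result was not tested. Averaged over the 12 mesenchyme markers, the relative log2 level was -0.645, 0.762 and 0.210 in Mest-KO and 0.364, -0.025 and -0.666 in control, so that Mest-KO 2, Control 1 and Mest-KO 3 ranked highest, as they did for Fos. Between the groups, 9 of these 12 were higher and 3 lower in Mest-KO, with a median of 0.38, and 0 were called. Dcn, 1 of those lower, had its lowest value on Mest-KO 2, at 909. Lum, another, read 1054 there against 1327 to 1736 in control, a log2 change of -0.48 (SE 0.123). Snai2 was higher in every Mest-KO pool, at 0.56 (SE 0.124). Control 3, lowest for mesenchyme, was not lowest for Fos. Macrophage and leukocyte markers, of which 5 of 12 lay above the filter and none was at 0, had summed intensities of 389 to 646 in Mest-KO and 348 to 1032 in control. Endothelium markers, 4 of 12 above the filter and none at 0, summed to 561 to 831 and 549.5 to 657.

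**Figure D5:**
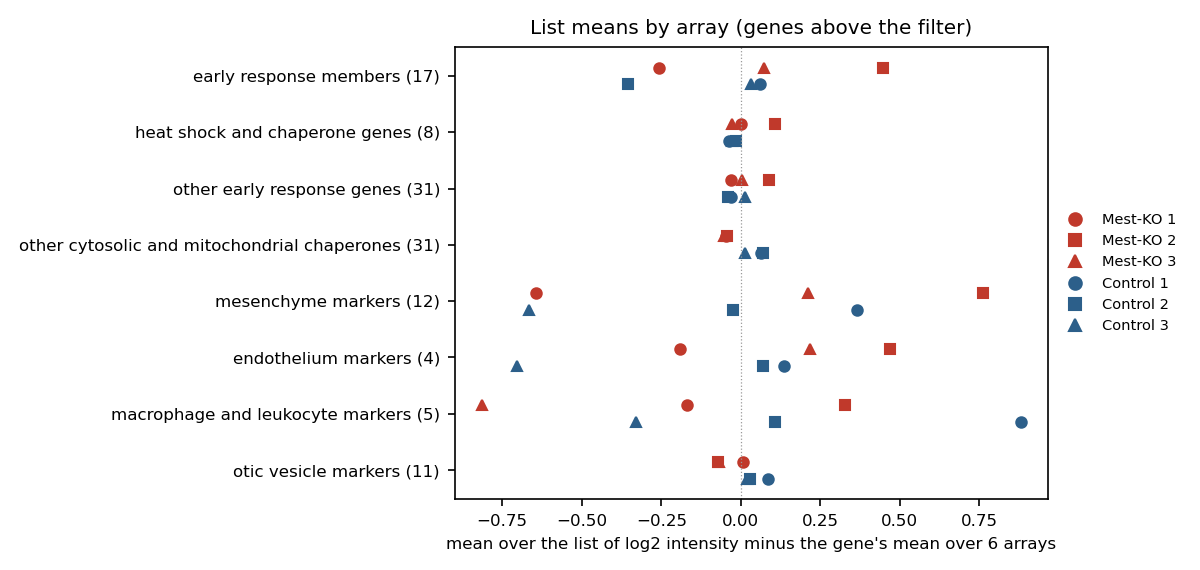
Mean over each gene list of the log2 intensity minus the gene's mean over the 6 arrays (horizontal axis), by array, with the number of genes above the filter in brackets. Early response members and mesenchyme markers were both highest on Mest-KO 2, at 0.448 and 0.762. The 31 other chaperones lay between -0.053 and -0.045 in Mest-KO and between 0.013 and 0.070 in control. The 11 otic vesicle markers did not overlap either, from -0.073 to 0.007 in Mest-KO and from 0.020 to 0.084 in control. These differences were not tested. The 8 heat shock members overlapped, from -0.029 to 0.108 in Mest-KO and from -0.036 to -0.016 in control.

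The relation of Fos to each of the other 24 tested members was computed over the 6 arrays. Egr1 had a Pearson r of 0.860 and a Spearman rho of 0.886 (exact permutation p 0.0222 and 0.0333), and r was 0.855 without the 2 arrays farthest from the median of Fos, Mest-KO 2 and Control 1. Klf4 had 0.916 and 0.886 (exact permutation p 0.00833 and 0.0333), and 0.861 without these arrays. Dusp1 ran the other way, at -0.931 and -0.886 (exact permutation p 0.00556 and 0.0333), and -0.885 without them. Hspa1b had 0.748 and 0.886, Hspa5 -0.728 and -0.943, and Dnaja1 -0.802 and -0.943. Each gene was read here at its brightest probe set, and the relation was not computed at the others. At another bright Hspa5 probe set Mest-KO 2 was the highest Mest-KO pool, while at the one used it was the lowest array. At another bright Dnaja1 probe set Control 3 was the lowest array, while at the one used it was the highest. None of the 24 relations passed after Benjamini-Hochberg adjustment, with a smallest adjusted exact permutation p of 0.10 for r and 0.133 for rho. The arrays pool both groups and share differences in tissue content, and the groups are too small for a relation within each.

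Other genes of the same responses were read from lists that the rule for the members did not use. Of 36 other early response genes, 31 were tested and 0 were called, with 18 higher and 13 lower in Mest-KO and a median of 0.074. None had an unadjusted p under 0.05. The smallest was that of Nr4a2, the third member of the Nr4a receptor family, at a log2 change of 0.30 (SE 0.129), with 889 to 1244 in Mest-KO and 794 to 875 in control. The median ratio of residual SD to that of the same level was 1.11 in this list, 1.75 in the early response members and, as given above, higher in the mesenchyme markers. Of 17 upstream kinases and factors, 14 were tested and 0 were called. Their averages by array, relative to each gene's mean, ran from 0.005 to 0.070 in Mest-KO and from -0.046 to -0.013 in control. Elk3, a ternary complex factor that partners SRF, had the smallest p, at 0.31 (SE 0.145).

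Of 33 other cytosolic and mitochondrial chaperones and their partners, 31 were tested and 0 were called. Their change was above 0 for 9 and below 0 for 22. The median change was -0.063, against -0.0033 over all genes. Hspa2, an Hsp70 best known from the testis, had the smallest p and ran from 708 to 871 in Mest-KO and from 556 to 610.4 in control, a log2 change of 0.43 (SE 0.114) with a limma adjusted p of 0.807. Cryab and Hspb8, small heat shock proteins, differed by -0.57 (SE 0.200) and -0.64 (SE 0.225), and Hmox1, the heme oxygenase induced by oxidative stress, by -0.38 (SE 0.149). These 3 of 31 were lower at an unadjusted p under 0.05, against 2.91% of all genes, and Hspa2 alone was higher, against 2.23%. The 3 were named after their values were seen. Of 22 endoplasmic reticulum stress genes, all were tested, 8 were higher and 14 lower, and 0 were called. Creld2, a secreted target of that response, had the smallest p, with 1368 to 1421 against 1515 to 1740, a log2 change of -0.23 (SE 0.0840) and a limma adjusted p of 0.909.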

How the data were processed

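The arrays were Affymetrix mouse arrays, 1 per pool. The submitters' processing notes name Affymetrix Expression Console 1.1. The deposited table holds linear probe set intensities, scaled by the authors to a trimmed mean of 500 per array (2% off each end, as found from the values). How probes were summarised and background was removed is not given here, and there were no detection calls. No pair of arrays shared more than 1 equal value.

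The 64 control probe sets of 45101 were dropped. By the platform annotation 34945 probe sets had 1 symbol, 932 had several and 9160 stay unnamed here. A floor of 1 was set, then log2 and quantile normalization applied. The brightest probe set by mean stood for its gene, and a mean above the 40th percentile was required, leaving 12462 genes (27022 probe sets before the choice of 1 per gene). Groups were compared in limma 3.58.1 (R 4.3.3) at an adjusted p under 0.05. The steps were tested on simulated data. Members below the filter were read from a fit without it. Figures were drawn in matplotlib 3.10.9 (Python 3.11.15).

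Every array's value is given for members with an unadjusted p under 0.05 or without overlap of the groups, for the largest residual SD of each role, and for a fixed list of core genes. Of each pathway list the gene with the smallest p is named. Members and lists were chosen with earlier results of these data known. The labels describe the pools as biological replicates, and their number limits the precision. Alternatives covered the filter, normalization, floor, choice of probe set, variance prior, array weights, a replicate block, arrays left out, the threshold and a plain two-sample statistic.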

Additional observations from a re-analysis of the deposited data

How the results depend on the processing

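The count of members past the adjusted threshold stayed at 0 under every setting named here, and their median change moved by less than the spread between pools, to -0.093 with median centring (all genes -0.136) and -0.033 with the most variable probe set, and over 0.0096 to 0.149 with an array left out. Over all genes, where 0 were called, a filter at the 60th percentile gave 7 calls, median centring 25, the most variable probe set 1, the trend 13, trend plus robust fitting 16 and a threshold of 0.10 gave 7. Over probe sets, also at 0, dropping the filter gave 1 call, the 60th percentile 9, median centring 15, the trend 14, its robust form 17 and a threshold of 0.10 gave 1. The count of members with a residual SD over 2 times that of their level was 7, 3 with median centring, 11 with the replicate block, where 10.8% of all genes exceeded it, and 4 to 8 with an array left out. The labels do not say whether pools with the same replicate number were paired. Their deviations from the group means had correlations of -0.109, -0.008 and -0.007, which cannot exclude a pairing. The replicate block left the counts of genes, probe sets and members called at 0 and the median change of the members at 0.082. Of 32 members, 15 changed sign in at least 1 of 12 settings other than an array left out. They were with median centring Fosb at 0.25, Jund at -0.093, Klf6 at -0.14, Ier2 at -0.029, Hspa8 at -0.21 and Hsp90aa1 at -0.12; with the deposited scaling alone Fosb at 0.40, Nr4a1 at 0.025, Hspa8 at -0.060 and Hspb1 at 0.070; with a floor at 16 Klf2 at -0.10 and Hspa1a at 0.016; with the mean of probe sets Ier5 at -0.067 and Hsp90aa1 at -0.13; with the most variable probe set Fosl2 at -1.21, Nr4a3 at 0.22, Klf4 at -0.037, Klf6 at -0.16, Ier5 at -0.46 and Hspa5 at 0.037; with array weights Fosb at 0.21; without both pools of one sex Nr4a3 at 0.015. With an array left out 12 members changed sign, and their ranges were Fos from -0.067 to 1.00, Fosb from -1.27 to 1.28, Junb from -0.20 to 1.41, Atf3 from -0.69 to 0.11, Nr4a1 from -0.39 to 0.29, Nr4a3 from -0.47 to 0.15, Klf2 from -0.83 to 1.11, Klf6 from -0.044 to 0.082, Myc from -0.81 to 0.16, Ier2 from -0.019 to 0.29, Dusp1 from -0.15 to 0.051, Hspb1 from -0.22 to 0.11. The cause of these changes was not tested. Fosl1 was at the floor on all arrays with a floor at 16 and gave no value there. The table gives no detection calls, so background could not be set per probe set, and 3 pools per group limit what can be seen.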

Other observations

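Probe sets of one gene did not always give the same direction. The 4 probe sets of Hspa8 gave log2 changes from 0.0075 to 0.037, and the 2 of Dnajb1 gave -0.11 and -0.072. The 5 probe sets of Klf6 gave changes from -0.16 to 0.15. Hsp90aa1 gave 0.082, -0.048, -0.23 and -0.32 at the 4 probe sets above the filter, so the direction of this chaperone gene was not the same across them. Of the 3 Nr4a3 probe sets, 2 lay below the filter, with at most 36.2 on any array, and gave 0.22 and 0.74 where the third gave -0.25.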
